A study of Mus musculus with 40 samples.

Results

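Voltage-gated sodium channel subunits were followed through 40 libraries of mouse forebrain RNA, by the rows of the count tables that carry 7 gene symbols. They are 7 of 41388 genes in the tables and were taken by name. Of these, 4 encode pore-forming alpha subunits (Scn1a, Scn2a, Scn3a and Scn8a) and 3 encode auxiliary beta subunits (Scn2b, Scn3b and Scn4b). All 7 had counts in all 40 libraries, from 243 to 53638 per library, and all 7 passed the limit on low counts in every comparison.

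Each library came from a pool of forebrains of mice of both sexes at 21 postnatal days, with 5 pools for each of 2 lines. In RBP4-TRAP mice the transgene Tg(RBP4-cre)KL100Gsat/Mmcd expresses Cre in layer 5 pyramidal cells. In VGAT-TRAP mice (Slc32a1tm2(cre)Lowl/J) Cre is expressed from Slc32a1, the gene of the vesicular GABA transporter, in GABAergic neurons. Mice of both lines also carried a Cre-dependent reporter at the Rosa26 locus that tags ribosomal protein L10a with EGFP, so that every group shares the reporter and no Cre-negative library was analysed here. From each pool there were 4 fractions: whole cell homogenate (WCH), ribosome-bound RNA captured from it through the tag (TRAP, translating ribosome affinity purification), the synaptoneurosome band of a gradient, which is enriched in pinched-off synaptic endings (SNF), and TRAP carried out on that band (SynapTRAP, ST). This gives 8 groups of 5 libraries. The labels give cortex as the tissue, while the methods of the study describe forebrain dissection.

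Sodium channels carry the inward current that starts and propagates the action potential. An alpha subunit forms the pore and its voltage sensors, and a short loop between its last 2 domains swings into the open pore and inactivates it. Beta subunits are single-span membrane proteins with an immunoglobulin fold that change gating and bring the channel to the membrane. In the brain Scn1a (Nav1.1) is best known from inhibitory interneurons and Scn2a (Nav1.2) from excitatory neurons, where it is found in unmyelinated axons and, early in life, at the axon initial segment. Scn8a (Nav1.6) is the main channel of mature initial segments and nodes of Ranvier, and Scn3a (Nav1.3) is mostly embryonic. Scn4b is known from striatal neurons and from cells that fire fast, where its tail is linked to resurgent current.

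The 4 pore-forming genes are close paralogs, which bears on reads of 50 bases. Stretches that they share were few. Of all 50-base windows, 4.03% in Scn1a, 5.76% in Scn2a and 6.49% in Scn3a were also found in transcripts of another gene, and the genes that shared most were Scn1a, Scn2a, Scn3a and Scn9a. The share was 0.0374% in Scn8a, 1.01% in Scn2b, and 0 of the windows in Scn3b and Scn4b. The authors counted uniquely aligned reads, so that a read lying wholly in a shared window may be missing from the count of either gene.

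Scn1a, Scn2a and Scn3a lie on chromosome 2 (Scn1a at 66270781 to 66440840, Scn2a at 65620857 to 65767447 and Scn3a at 65457118 to 65567627), and Scn8a on chromosome 15 (100870683 to 101045929). Scn2b (45117876 to 45130070), Scn4b (45138437 to 45154152) and Scn3b (40269216 to 40291618) are on chromosome 9. Coordinates are those of the deposited tables, whose gene spans overlap those of the same genes in the GRCm38 annotation. The annotation has a gene on the opposite strand within 4 of these spans (Gm13630 at Scn1a, Gm13595 at Scn3a, Gm10684 at Scn2b and Gm47266 at Scn3b), and whether the counting used strand is not given in the sources used here. For these 4 genes reads from the opposite strand cannot be told apart.

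The libraries held 14259535 to 22037703 counts, of which 8950847 to 21976631 remained without mitochondrial, rRNA and tRNA genes. Levels are given as cpm, which relates a count to the total of those that remained in its library. Markers of the tagged cells moved with TRAP: the summed cpm of 5 GABAergic markers (Slc32a1, Gad1, Gad2, Dlx1 and Dlx2) was 92.5 to 437 in RBP4 TRAP and 3027 to 5203 in VGAT TRAP, and that of 4 projection neuron markers was 665 to 1034 and 183 to 337. Between the TRAP groups, 3 of these 4 passed on the RBP4 side and 1 on the VGAT side (log2 fold changes of -1.08 to 4.03). All 7 striatal projection neuron markers were detected in both lines, and their sum reached 3164 to 4798 cpm in VGAT TRAP against 121 to 287 in RBP4 TRAP. In such bulk RNA, more cells of a type and more RNA per cell cannot be told apart. The ST libraries did not separate the lines in this way, with GABAergic sums of 205 to 329.9 cpm (RBP4) and 258 to 706 (VGAT). They also held oligodendrocyte markers at 24513 to 42633 cpm over both lines, against 341 to 4702 in TRAP. The library labelled RBP4 ST replicate 4 had 49.9 cpm of Slc32a1, within the range of the VGAT ST libraries (23.3 to 51.3). Its GABAergic sum (329.9) was within their range too. Its striatal sum (554) and fast-spiking sum (256) were below those of every VGAT ST library.

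Pool 3 of each line stood apart in SNF and ST. There mitochondrial genes took 40.2% (RBP4) and 41.9% (VGAT) of the SNF counts, against at most 19.4% in the other SNF libraries, and astrocyte markers reached 24784 and 24494 cpm against at most 13078. In 27 of 28 combinations of member and group in SNF and ST, the library of this pool held the lowest level. Without this pool, no call of a member in a comparison within a line was lost, and 2 were added (Scn3a in RBP4 and Scn2b in VGAT, both for SNF against WCH, with log2 fold changes of 0.67 and 0.69). The part of mitochondrial and astrocyte RNA in the lower levels was not tested. Among the RBP4 TRAP libraries, replicate 5 stood apart, with 437 cpm of GABAergic markers (92.5 to 139 in the others), 4702 of oligodendrocyte markers (341 to 830.1) and 1650 of astrocyte markers (369 to 682).

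In whole homogenate the subunits spanned a wide range per length. On the rpkm scale (cpm per kb of exon), Scn2b was highest in RBP4 WCH at 239 ± 125, followed by Scn2a at 66.9 ± 3.48, Scn8a at 35.3 ± 2.44 and Scn1a at 24.3 ± 2.498 (SD, n = 5). Scn3b had 22.2 ± 1.83, Scn3a 9.02 ± 0.968 and Scn4b 6.86 ± 1.16. Of these neighbours, Scn1a and Scn3b overlapped over the 5 libraries and the others did not. VGAT WCH gave 289 ± 92.6 for Scn2b, 63.3 ± 5.42 for Scn2a, 35.3 ± 2.85 for Scn8a and 24.4 ± 1.82 for Scn1a, with Scn4b (9.33 ± 2.05) and Scn3a (8.09 ± 1.19) overlapping at the lower end. The order of the first 5 genes was the same in both lines. It changed in VGAT TRAP, where Scn4b came second at 26.0 ± 4.78 rpkm and overlapped with Scn2a (22.1 ± 3.42), Scn2a with Scn1a (20.9 ± 1.78) and Scn1a with Scn8a (15.8 ± 2.58). In RBP4 TRAP the order down to Scn3b was that of WCH. By mean cpm in VGAT TRAP, Scn4b (129) came below Scn1a (231), Scn2a (205) and Scn8a (192). The paper describes a heavy 3' bias of its reads. Levels divided by full exon length may therefore not be comparable between genes of unequal length. The part of this bias in the order was not tested.

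**Figure D1:**
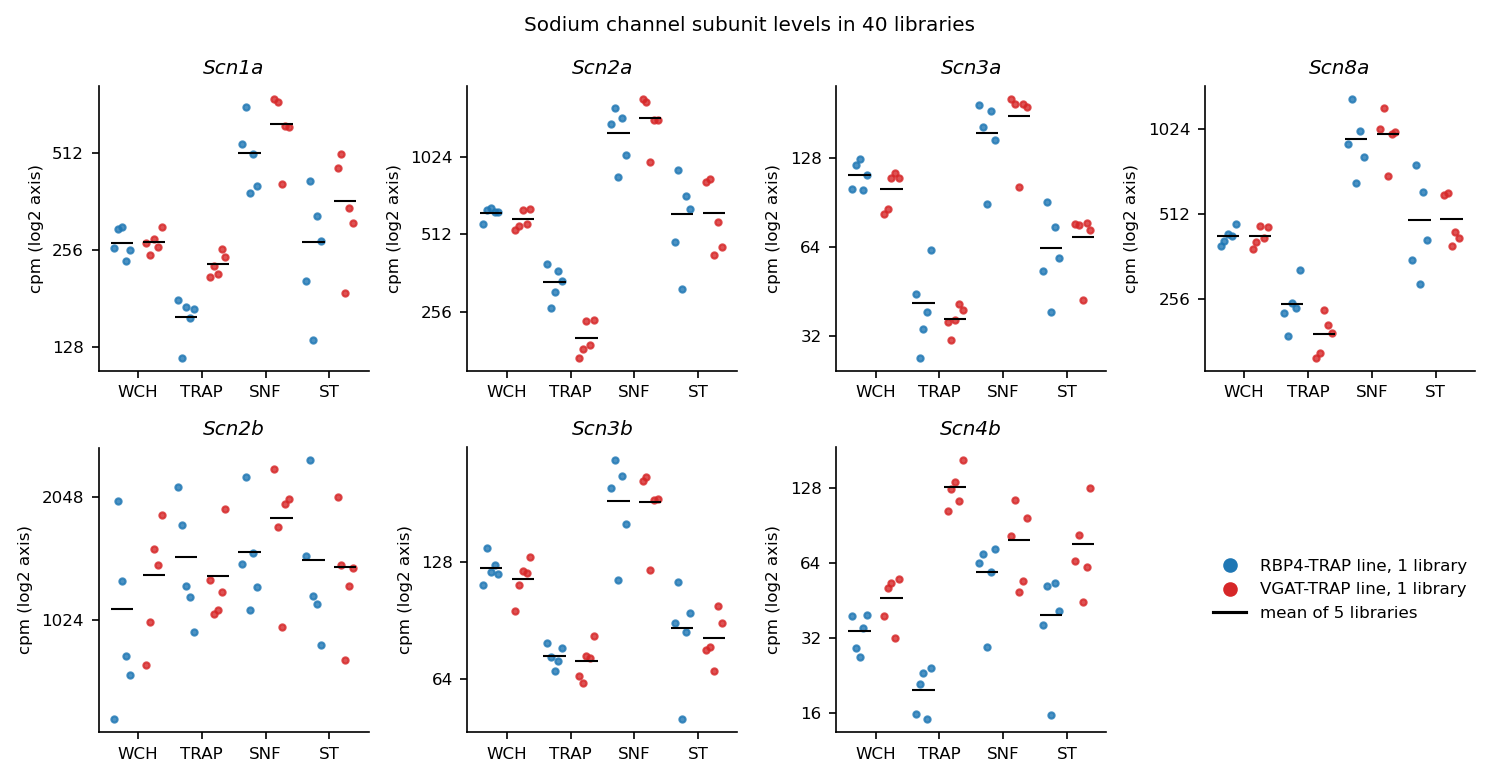
Level of each subunit in cpm (log2 axis) in the 4 fractions, with 1 point per library (blue RBP4, red VGAT) and a bar at the mean of 5. Scn4b sits at 103 to 165 cpm in VGAT TRAP and at 15.02 to 24.2 in RBP4 TRAP, while the 4 pore-forming genes and Scn3b are highest in SNF.

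The first comparison within a line asked which messages are bound to ribosomes of the tagged neurons relative to the tissue. In RBP4-TRAP mice, 6 of the 7 subunits fell in TRAP against WCH, and the exception was Scn2b. Scn3a, the embryonic channel, fell most, from 100.3 to 127 cpm in WCH to 27.0 to 62.9 in TRAP, where the highest value was that of replicate 5 and the others were at most 44.5. Scn2a had 564, 636, 647, 625 and 626 cpm in WCH and 395, 267, 306, 371 and 338 in TRAP (replicates 1 to 5). All 5 TRAP libraries lay below all WCH libraries for each of the 6 genes. The share of all genes with such separation was not counted, here or in the comparisons below.

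The log2 fold change in RBP4 was -1.44 for Scn3a (SE 0.24, edgeR adjusted p = 8.3e-05), -0.89 for Scn2a (SE 0.23, adjusted p = 0.0038), -0.80 for Scn8a (adjusted p = 0.0087) and -0.77 for Scn1a (adjusted p = 0.0121). The auxiliary subunits Scn3b and Scn4b changed by -0.75 and -0.78 (adjusted p = 0.00401 and 0.0244). Scn2b had 0.42 (SE 0.32, adjusted p = 0.307) with overlapping groups. Over all genes tested, 31.5% were lower and 8.37% higher in TRAP, and the median gene had -0.34. Relative to that median the members stood at -1.11 for Scn3a, -0.55 for Scn2a, -0.47 for Scn8a, -0.44 for Scn4b, -0.43 for Scn1a, -0.41 for Scn3b and 0.76 for Scn2b. With edgeR's TMM factors, which bring the median to -0.05, only Scn3a and Scn2a passed, and with DESeq2 these and Scn3b. With no genes left out of the library sizes, Scn1a and Scn4b missed the threshold (-0.68 each). Scn4b also missed the threshold without pool 1, 2 or 4 (adjusted p = 0.134, 0.0504 and 0.108). Without pool 5 the 6 calls were kept, and Scn3a had -1.64. Markers of other cells fell in the same comparison, with 5 of 5 GABAergic (median log2 fold change -2.25), 7 of 7 striatal (-1.83), 2 of 3 fast-spiking (-1.45), 5 of 6 astrocyte (-2.44) and 4 of 5 oligodendrocyte markers (-2.43), and their part in the lower levels of the subunits was not tested.

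In VGAT-TRAP mice the subunits went apart. Scn2a fell the most, from 534, 554, 636, 563 and 644 cpm in WCH to 171, 185, 237, 191 and 239 in TRAP, a 2.87-fold decrease. Scn3a (2.74-fold) and Scn8a (2.23-fold) fell as well, and so did Scn3b (1.63-fold), with no overlap between the groups of any of these genes. Scn4b rose 2.79-fold, from 39.3, 50.8, 53.3, 31.8 and 55.3 cpm to 103, 127, 135, 113 and 165. Scn1a, the channel of interneurons, had 246 to 300 cpm in WCH and 211 to 258 in TRAP, and these ranges overlapped.

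As log2 fold changes these were -1.52 for Scn2a (SE 0.19, edgeR adjusted p = 7.74e-07), -1.46 for Scn3a (SE 0.18, adjusted p = 7.14e-07), -1.16 for Scn8a (SE 0.16, adjusted p = 2.61e-06) and -0.70 for Scn3b (SE 0.14, adjusted p = 0.00023). Scn4b had 1.48 (SE 0.25, adjusted p = 3.73e-05). Scn1a had -0.23 (SE 0.20, adjusted p = 0.318), a value that became 0.00 with DESeq2 and 0.03 with TMM, and Scn2b had -0.01 (SE 0.26), which became 0.22 and 0.25. Of all genes tested in VGAT, 41.8% were lower and 21.0% higher in TRAP. The 5 calls of members were kept under TMM, DESeq2 and with no genes left out. Markers of striatal neurons rose with Scn4b, 7 of 7 of them, by 1.07 to 2.81 on the log2 scale, and none of the 7 was at 0. All 5 GABAergic markers (1.81 to 2.57) and all 3 fast-spiking markers (1.12 to 3.62) rose as well. Of the 4 projection neuron markers, 1 rose and 3 fell. The part of these cells in the level of Scn4b was not tested.

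Length moved with TRAP over all genes. Genes with at least 9000 exonic bases, among them the 4 pore-forming members (9259 to 12459 bases), had a median log2 fold change in TRAP against WCH of -0.86 in RBP4 and -0.92 in VGAT. Across the genes tested, Spearman's rho of exonic length with this change was -0.25 and -0.22. This is a description across genes, which are not independent replicates, and the part of length in the values of the members was not tested. Scn2a, Scn8a and Scn1a in RBP4 lay close to the median of long genes, Scn3a in both lines and Scn2a and Scn8a in VGAT below it, and Scn1a in VGAT above it.

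The next comparison asked which messages are more abundant in synaptoneurosomes than in the homogenate. The 7 subunits all had higher mean levels in SNF, in both lines and under each scaling tried. In RBP4, 5 of 7 passed the test (all but Scn3a and Scn2b), against 13.4% of all genes that were higher and 36.1% that were lower. In VGAT, 6 of 7 passed (all but Scn2b), against 19.3% higher and 45.2% lower. Scn2a, Scn8a and Scn1a rose most: Scn8a went from 394 to 473 cpm in WCH to 662 to 1312 in SNF in RBP4, and from 385 to 465 to 698 to 1218 in VGAT. For these 3 genes no SNF library overlapped with WCH in either line. Glial markers rose in the same comparison, with 6 of 6 astrocyte markers (median log2 fold changes of 1.38 in RBP4 and 1.52 in VGAT), 4 of 5 oligodendrocyte markers (1.02 and 1.14), both precursor markers (1.43 and 1.48), and 3 of 4 microglial markers in RBP4 and 4 of 4 in VGAT (1.43 and 1.397). Of the 5 GABAergic markers 1 rose in each line, and 3 and 4 fell. The part of these cells in the levels of the subunits was not tested.

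In VGAT the log2 values for SNF over WCH were 1.30 for Scn2a (SE 0.19, edgeR adjusted p = 4.82e-06), 1.21 for Scn1a (SE 0.20) and 1.20 for Scn8a (SE 0.16), then 0.82 for Scn3a, 0.78 for Scn4b and 0.65 for Scn3b. In RBP4 it was 1.14 for Scn8a (SE 0.23, adjusted p = 0.000613), 1.02 for Scn2a (SE 0.23), 0.92 for Scn1a (SE 0.23), 0.79 for Scn4b and 0.58 for Scn3b. Scn3a had 0.47 in RBP4 (SE 0.24, adjusted p = 0.0989), and passed with DESeq2 (0.90) and TMM (0.81). Scn2b had 0.46 and 0.47 (adjusted p = 0.239 and 0.113). Since the median of all genes was -0.50 in RBP4 and -0.52 in VGAT, these values stand 0.96 to 1.64 and 0.99 to 1.81 above it. Genes with at least 9000 exonic bases had medians of -0.52 and -0.44, close to those of all genes. With no genes left out, Scn3b and Scn4b lost their calls in both lines (log2 fold changes of 0.38 to 0.61). In RBP4, Scn3b also lost its call without pool 1, 2 or 4 (0.52 to 0.53), and Scn4b without pool 1 or 2 (0.82 and 0.68), and in VGAT Scn4b without pool 2 (0.65).

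TRAP on the synaptoneurosome, against the synaptoneurosome itself, asks which of its messages are on ribosomes of the tagged neurons. Here all 4 pore-forming subunits and Scn3b fell, in both lines, while Scn2b and Scn4b did not pass. Scn2a had 1363, 1583, 857, 1447 and 1041 cpm in RBP4 SNF and 478, 907, 314, 722 and 644 in RBP4 ST, and every ST library was below the SNF library of its own pool. In VGAT it had 1711, 1669, 974, 1422 and 1421 cpm in SNF and 816, 837, 427, 570 and 458 in ST. The groups overlapped in RBP4 and not in VGAT.

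Among all genes, 5.46% were lower and 5.64% higher in ST against SNF in RBP4, and 11.2% were lower and 16.3% higher in VGAT. The log2 fold changes in RBP4 were -1.30 for Scn3a (SE 0.24, edgeR adjusted p = 0.000999), -1.09 for Scn3b (SE 0.19, adjusted p = 0.000686), -1.04 for Scn2a (adjusted p = 0.0044), -0.95 for Scn8a (adjusted p = 0.00945) and -0.91 for Scn1a (adjusted p = 0.0135). In VGAT they were -1.36 for Scn3a (SE 0.18), -1.21 for Scn2a (SE 0.19), -1.16 for Scn3b (SE 0.14), -0.997 for Scn8a (SE 0.16) and -0.79 for Scn1a (SE 0.20, adjusted p = 0.0039). Scn4b had -0.58 (SE 0.26, adjusted p = 0.170) in RBP4 and -0.05 (SE 0.25, adjusted p = 0.903) in VGAT, and Scn2b -0.07 and -0.41 (adjusted p = 0.929 and 0.265). Without RBP4 pool 1, Scn1a, Scn2a and Scn8a missed the threshold (adjusted p = 0.116, 0.0578 and 0.0826), as did Scn1a without pool 4 (0.0527). With no genes left out, Scn1a and Scn8a missed it in RBP4 (-0.69 and -0.74) and Scn1a in VGAT (-0.57). The summed level of 5 oligodendrocyte markers was 27360 to 37404 cpm in RBP4 ST against 11410 to 17221 in SNF, with 2 of the 5 past the threshold upward. The median of the 5 was -0.16 on the log2 scale in RBP4 and -0.57 in VGAT (2 higher and 1 lower), and their part in the lower levels of the subunits was not tested.

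The study defined local candidates as messages with ST above SNF and SNF above WCH, and somatic ones as those with TRAP above WCH and SNF below it. With each step taken here at an unadjusted p under 0.05, a threshold chosen without reference to the lists of the study, 0.417% of all genes were local and 5.94% somatic in RBP4, and 1.29% and 13.2% in VGAT. None of the 7 members was in any of these lists, also with TMM and with adjusted p-values. In both lines all 7 members had a positive value in SNF against WCH and a negative one in ST against SNF, although Scn2b in RBP4 and Scn4b in VGAT turned positive in the latter with no genes left out (0.14 and 0.16).

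**Figure D2:**
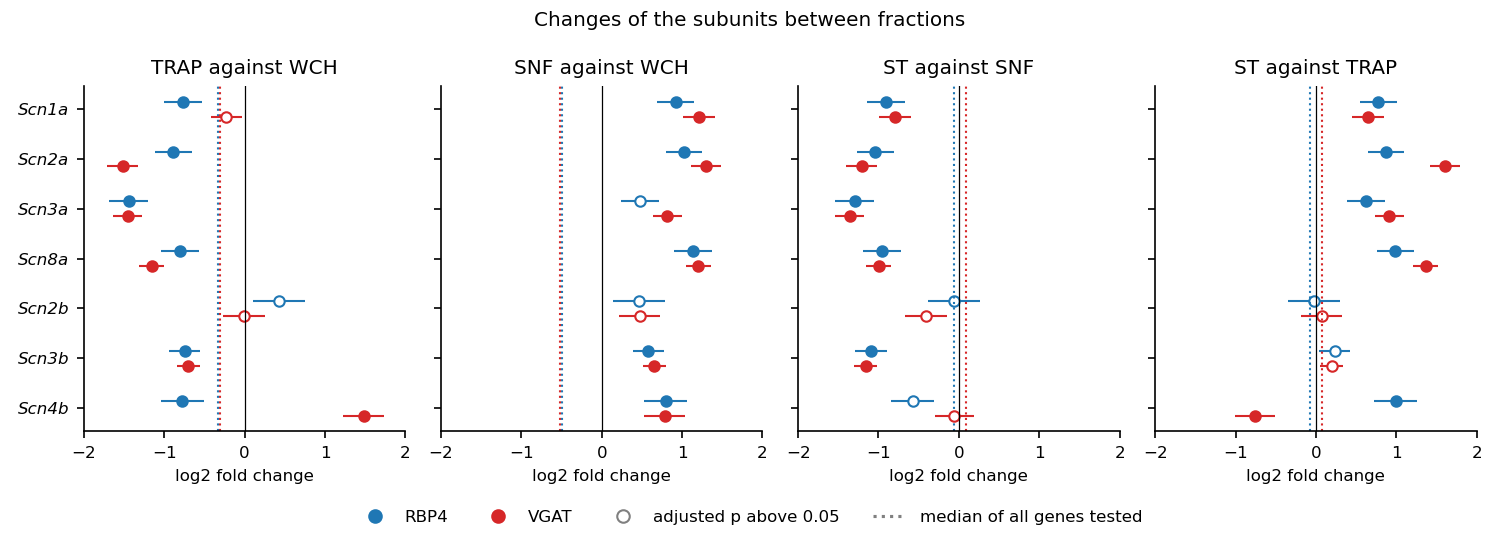
Log2 fold change between fractions for the 7 subunits, with SE bars (blue RBP4, red VGAT, filled where the adjusted p is at most 0.05) and the median of all genes tested as dotted lines. The members lie to the right in SNF against WCH and to the left in ST against SNF, and Scn4b separates the lines in TRAP against WCH, at -0.78 and 1.48.

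Between the ribosome-bound fractions, the pore-forming subunits were higher in ST than in TRAP. In VGAT Scn2a rose 3.04-fold, Scn8a 2.57-fold, Scn3a 1.88-fold and Scn1a 1.57-fold, and in RBP4 the 4 genes rose 1.54-fold to 1.98-fold. Scn4b went in opposite directions, up 1.99-fold in RBP4 (adjusted p = 0.00315) and down 1.69-fold in VGAT (adjusted p = 0.00999, edgeR). Scn3b and Scn2b did not pass in either line, with log2 fold changes of 0.24 and 0.20 for Scn3b and of -0.02 and 0.07 for Scn2b.

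Over all genes tested, 26.0% were higher and 29.1% lower in ST than in TRAP in RBP4, and 37.5% and 34.0% in VGAT. The log2 fold changes were 1.60 for Scn2a (SE 0.19, edgeR adjusted p = 1.4e-07) and 1.36 for Scn8a (SE 0.16, adjusted p = 1.21e-07) in VGAT. In RBP4 they were 0.99 for Scn8a, 0.87 for Scn2a, 0.78 for Scn1a and 0.62 for Scn3a (adjusted p = 0.00102, 0.00244, 0.00718 and 0.0310). In RBP4 the call of Scn3a was lost without pool 2 or 4 or without the library ST replicate 4 (0.33, 0.53 and 0.55) and with no genes left out (0.54), and that of Scn1a without pool 2 or 4 (0.48 and 0.70). In VGAT, Scn1a missed the threshold without pool 1 or 2 (0.51 and 0.49). Long genes had a median of 0.46 in RBP4 and 0.75 in VGAT. All 5 oligodendrocyte markers were higher in ST than in TRAP in both lines (log2 fold changes of 2.88 to 6.46). All 6 astrocyte, 4 microglial, 2 precursor and 3 endothelial markers were higher as well in both lines. In RBP4, 3 of 5 GABAergic and 5 of 7 striatal markers were higher. In VGAT, 3 of 4 projection neuron markers were higher, while all 5 GABAergic and all 7 striatal markers were lower. The part of these cells in the differences was not tested.

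The lines were then compared directly in each fraction, to ask which messages differ between the neuron types and whether they do so in the homogenate already. In WCH no member passed in edgeR, at an unadjusted p under 0.05 or in DESeq2, and the groups overlapped for all 7, with log2 fold changes (RBP4 over VGAT) from -0.44 for Scn4b (SE 0.25) to 0.16 for Scn3a (SE 0.20). At 0.0118% of genes, few passed there at all. In TRAP, Scn2a was 1.64-fold higher in RBP4 and Scn4b 6.49-fold lower. Scn2a had 267 to 395 cpm in RBP4 TRAP and 171 to 239 in VGAT TRAP. Scn4b had 15.7, 20.9, 23.1, 15.02 and 24.2 cpm in RBP4 TRAP, below every value in VGAT TRAP.

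The log2 fold change in TRAP was -2.70 for Scn4b (SE 0.27, edgeR adjusted p = 2.92e-09) and 0.71 for Scn2a (SE 0.21, adjusted p = 0.00893), where 12.9% of all genes were higher and 15.1% lower in RBP4. Both calls were kept under DESeq2, TMM, with no genes left out and without each pool in turn, with values of 0.65 to 0.78 for Scn2a and of -2.78 to -2.59 for Scn4b when 1 pool was left out. Scn1a was lower in each RBP4 TRAP library (118 to 178 cpm) than in any of VGAT TRAP (211 to 258), with a log2 fold change of -0.54 (SE 0.22). Its adjusted p of 0.0608 missed the threshold in the quasi-likelihood test. It passed in a likelihood ratio test (0.0496) and without replicate 3 of either line (0.0413 and 0.0451). Scn8a had 0.36 (SE 0.19, adjusted p = 0.180), Scn3a 0.17, Scn2b 0.16 and Scn3b 0.04, with overlapping groups.

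In ST none of the 7 passed in edgeR or DESeq2, in a comparison where 0.325% of genes did, and 1 (Scn4b) had an unadjusted p under 0.05. The pore-forming genes Scn2a, Scn8a and Scn3a had log2 differences of -0.02, -0.02 and -0.12 (SE 0.19 to 0.20), of a sign that changed with the scaling, and Scn1a had -0.41 (SE 0.22, adjusted p = 0.473). Scn4b had 35.9, 51.5, 15.7, 52.9 and 41.0 cpm in RBP4 ST and 65.1, 82.7, 44.4, 61.7 and 128 in VGAT ST. Its difference was -0.95 (SE 0.25, edgeR adjusted p = 0.116), which reached the threshold in a likelihood ratio test (adjusted p = 0.0342) and without the library RBP4 ST replicate 4 (-1.08, adjusted p = 0.0401). In SNF, compared after the data had been seen, no member passed either, also at an unadjusted p under 0.05 (edgeR, values of -0.43 for Scn4b to 0.01 for Scn3b) and 0.0178% of all genes did.

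The difference between the lines in ST less that in TRAP was tested as an interaction. It was 1.75 for Scn4b (SE 0.36, edgeR adjusted p = 0.00107), the only member that passed, so that the gap between the lines was smaller in ST. Over all genes 5.02% passed upward and 5.79% downward. Scn2a had -0.73 (SE 0.29, adjusted p = 0.106), which passed without RBP4 pool 2 (-0.99, adjusted p = 0.0238). The remaining members had 0.13 (Scn1a), -0.29 (Scn3a), -0.38 (Scn8a), -0.10 (Scn2b) and 0.04 (Scn3b). The difference in TRAP less that in WCH, added after the data had been seen, was -2.26 for Scn4b (SE 0.36, adjusted p = 3.14e-05) and passed for no other member (Scn2a 0.63, adjusted p = 0.176, and Scn1a -0.54, adjusted p = 0.311). Here 6.97% of all genes passed downward and 5.63% upward.

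**Figure D3:**
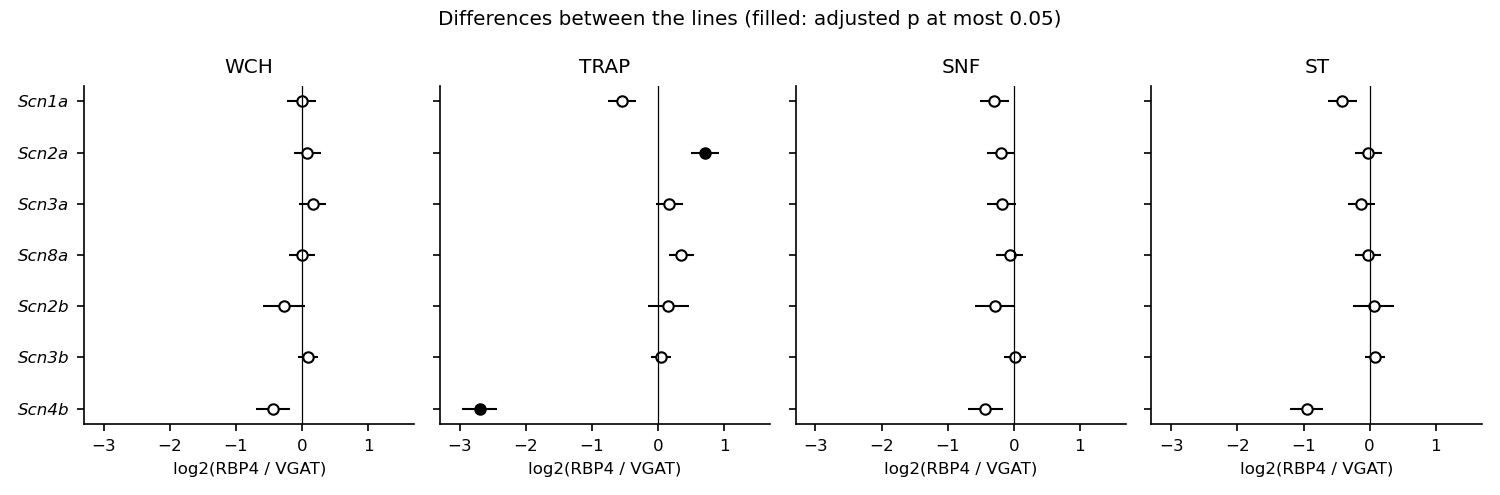
Log2 ratio of RBP4 over VGAT for each subunit in the 4 fractions, with SE bars (filled where the adjusted p is at most 0.05). Only Scn2a (0.71) and Scn4b (-2.70) are filled, both in TRAP.

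The mixture of pore-forming subunits was compared within libraries, where library size plays no part. The shares are per length and carry the limit of the 3' bias given above. Among the 4 genes per length, Scn2a made up 49.4% ± 0.989 in RBP4 WCH and 48.3% ± 0.577 in VGAT WCH (SD, n = 5), Scn8a 26.0% and 26.9%, Scn1a 17.9% and 18.6%, and Scn3a 6.64% and 6.16%. The makeup of RBP4 TRAP was close to this, with 49.0% ± 3.83 for Scn2a and 19.3% ± 1.39 for Scn1a. VGAT TRAP differed, with 35.7% ± 2.66 for Scn2a and 34.0% ± 3.18 for Scn1a, and Scn8a stayed at 25.5% ± 2.09. In VGAT ST, Scn2a made up 45.7% ± 2.24 and Scn1a 21.99% ± 2.78, and in VGAT SNF 50.5% and 18.3%. The summed level of the 4 genes was 135.6 ± 7.17 rpkm in RBP4 WCH, 74.1 ± 10.4 in TRAP, 272 ± 65.1 in SNF and 136 ± 51.7 in ST, and in VGAT 131 ± 10.5, 61.7 ± 6.38, 307 ± 61.5 and 146 ± 41.2.

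**Figure D4:**
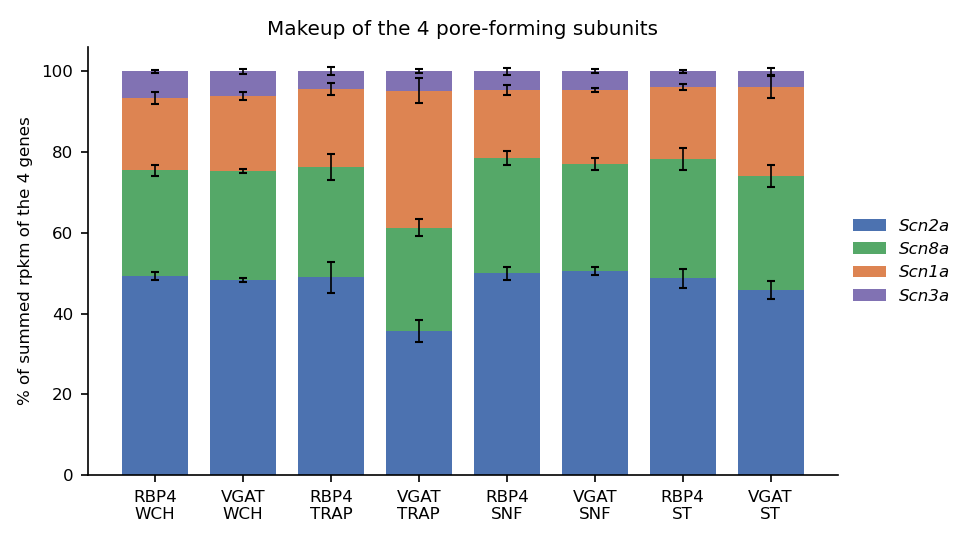
Share of each pore-forming gene in the summed rpkm of the 4, as the mean of 5 libraries per group with SD bars at the top of each part. Scn1a takes 34.0% in VGAT TRAP and between 16.9% and 21.99% in the other groups.

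The ratio of Scn1a to Scn2a per length put a test on this. In TRAP it was 0.354 to 0.466 in RBP4 and 0.758 to 1.13 in VGAT, a difference of -1.27 in mean log2 ratio (exact 2-sided permutation test over 5 against 5 libraries, p = 0.00794, the smallest this design allows, adjusted p = 0.0317 over 4 fractions). All VGAT libraries lay above all RBP4 libraries. In ST the ratio was 0.353 to 0.386 in RBP4 and 0.367 to 0.565 in VGAT, a difference of -0.38 (exact permutation p = 0.0238, adjusted p = 0.0476) with an overlap. Without RBP4 pool 1, 3 or 5 it missed the threshold (-0.38, -0.38 and -0.37, adjusted p = 0.0635, exact permutation test). In WCH and SNF the differences were -0.09 and -0.10 (exact permutation p = 0.238 and 0.190, adjusted p = 0.238 for both).

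Scn2b, which links to the alpha subunit by a disulfide bond, was the most abundant member in all 8 groups, per length and by mean cpm. Its libraries varied widely. Its 5 values in RBP4 WCH were 584, 2002, 1278, 836 and 749 cpm, a coefficient of variation of 52.4%, where Scn2a had 5.199%. In the other groups this coefficient was 27.0% to 44.7%. It passed in none of the comparisons named above under the quasi-likelihood test with all libraries, and the SE of its log2 differences was 0.26 to 0.44. Values ranged from -0.41 for ST against SNF in VGAT to 0.47 for SNF against WCH in VGAT, and it passed for SNF against WCH with DESeq2 in both lines (0.91 in each) and with TMM in VGAT (0.81). Among the auxiliary genes it made up 82.0% to 96.5% of the summed rpkm in every library.

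Scn3b, a noncovalently bound beta subunit, moved in the direction of the 4 pore-forming genes in SNF against WCH and in ST against SNF. In ST against TRAP, where those 4 genes passed in both lines, Scn3b did not (0.24 in RBP4 and 0.20 in VGAT). Its levels were 112 to 139 cpm in RBP4 WCH, 66.8 to 79.0 in TRAP, 115 to 234 in SNF and 50.3 to 114 in ST. The lines differed by no more than 0.09 on the log2 scale in WCH, TRAP, SNF and ST (SE 0.15 to 0.17). Over the 40 libraries the Pearson correlation of its log2(cpm + 1) was 0.94 with Scn3a and 0.87 with Scn2a, against 0.21 with Scn4b and 0.35 with Scn2b. The 4 pore-forming genes correlated with one another at 0.83 to 0.98. These values are descriptions over libraries that share pools and fall into 8 groups.

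Scn4b had a pattern of its own, and the genes most like it over the 40 libraries were Penk and Adora2a (Pearson r = 0.94 for both, out of 10791 genes whose mean reached 5 cpm). Penk encodes the precursor of enkephalins and Adora2a an adenosine receptor, and both stood in the list of 7 striatal markers. The summed cpm of that list was 441 to 767 in RBP4 WCH, 121 to 287 in TRAP, 522 to 1036 in SNF and 245 to 698 in ST. In VGAT it was 550 to 835, 3164 to 4798, 706 to 1543 and 766 to 2631. The highest VGAT ST value of the sum and of Scn4b (128 cpm) was in the same library, replicate 5. In TRAP the 3 markers of fast-spiking interneurons (Pvalb, Kcnc1 and Kcnc2), another known site of Scn4b, also differed, with sums of 72.5 to 226 cpm in RBP4 and 1956 to 2776 in VGAT.

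**Figure D5:**
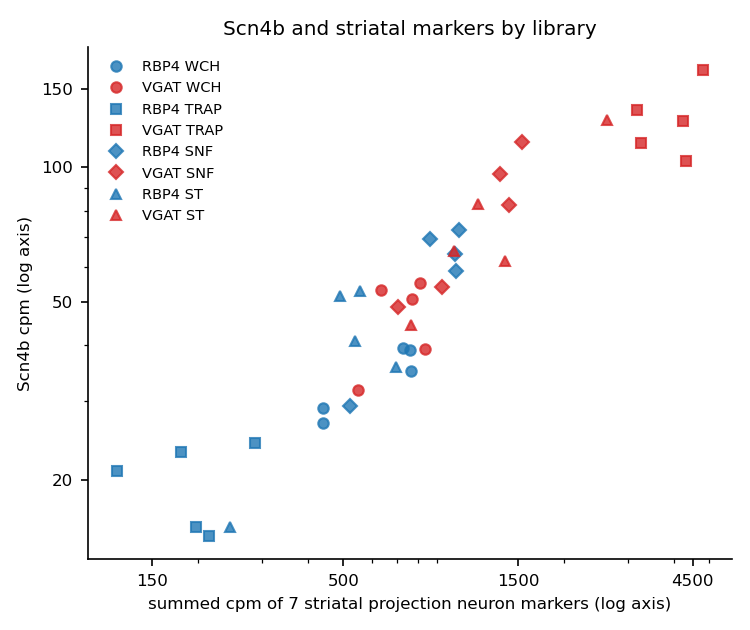
Scn4b level against the summed level of 7 striatal projection neuron markers in each of the 40 libraries (both axes log, cpm), with colours for the line and symbols for the fraction. The RBP4 TRAP libraries sit at the lower left (121 to 287 cpm of markers) and the VGAT TRAP libraries at the upper right (3164 to 4798).

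For the remaining members, the 2 most similar genes were Kcnd2 (a potassium channel of dendrites; r = 0.96) and Thsd7a (0.95) for Scn1a, Atrn and Gria3 (an AMPA receptor subunit; 0.98 each) for Scn2a, Pgap1 and Abca8b (0.96 each) for Scn3a, and Atrn (0.98) and Cacna1b (the N-type calcium channel; 0.97) for Scn8a. For Scn3b they were Npy1r and Gpr158 (0.95 each). Scn2b had no gene as close, with 0.68 for Wrb and 0.67 for Spcs3.

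Promoters are shown for the 2 subunits that differed between the lines in TRAP, as the 250 bases before the start of the gene in RefSeq (GRCm38.p6), with each CG dinucleotide in capitals. Scn4b (chr9:45138374-45138623, plus strand) holds 23 CG, and 13.3% of 32851 promoters in the table hold as many or more. The Scn4b span counted here starts at 45138437, and that of the GRCm38 annotation at 45138395. From there on, the stretch shown lies inside the gene by those coordinates. Scn2a (chr2:65620519-65620768, plus strand) holds 2, as many as or fewer than 81.2% of promoters, and a second Scn2a start in the table has 9. The median promoter holds 6. Scn1a has 4, Scn2b 1 and Scn8a 30 and 9 at 2 starts, and Scn3a and Scn3b had no entry. These counts describe the sequence, and no other readout of the promoters was analysed here.
Scn4b: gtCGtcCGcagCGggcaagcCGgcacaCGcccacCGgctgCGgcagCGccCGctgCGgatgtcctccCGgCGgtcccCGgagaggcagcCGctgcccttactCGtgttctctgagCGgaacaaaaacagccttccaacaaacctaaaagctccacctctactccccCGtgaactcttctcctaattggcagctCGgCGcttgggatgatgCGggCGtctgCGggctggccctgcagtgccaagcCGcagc
Scn2a: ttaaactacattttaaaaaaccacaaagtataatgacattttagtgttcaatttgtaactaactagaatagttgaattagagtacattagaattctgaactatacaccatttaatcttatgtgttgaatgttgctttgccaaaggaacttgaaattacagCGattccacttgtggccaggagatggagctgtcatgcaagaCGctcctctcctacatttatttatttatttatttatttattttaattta

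The wider pathway was read from a list of 31 genes: other channel subunits, anchors of the axon initial segment such as Ank3 (ankyrin G) and Nfasc, fibroblast growth factor homologous factors that bind the channel tail, and regulators and processing enzymes. Scn4a, the channel of skeletal muscle, was at most 0.127 cpm and was not tested, and 30 genes were tested in RBP4 and between the lines (29 in VGAT, without Scn11a). In RBP4, 5 rose and 8 fell in TRAP against WCH (8.37% and 31.5% of all genes), 10 and 10 in SNF against WCH (13.4% and 36.1%), 7 and 6 in ST against SNF (5.64% and 5.46%), and 11 and 7 in ST against TRAP (26.0% and 29.1%). In VGAT these counts were 5 and 13 of 29 (21.0% and 41.8% of all genes), 10 and 12 (19.3% and 45.2%), 9 and 8 (16.3% and 11.2%), and 13 and 8 (37.5% and 34.0%). The median of the list in SNF against WCH was 0.18 in RBP4 and 0.56 in VGAT, where that of the 7 members was 0.79 and 0.82.

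Between the lines no pathway gene passed in WCH, SNF or ST (edgeR, with 1, 1 and 3 of 30 at an unadjusted p under 0.05), while in TRAP 5 of 30 were higher in RBP4 and 2 in VGAT, where 12.9% and 15.1% of all genes were. By the rule for names these were Nrcam, a cell adhesion molecule of initial segments and nodes (log2 fold change 1.28, SE 0.24, edgeR adjusted p = 0.000133), and Scn7a (1.89, SE 0.40, adjusted p = 0.000504) on the RBP4 side. On the VGAT side they were Fgf11, a homologous factor (-2.04, SE 0.25, adjusted p = 1.17e-07), and Scn9a, which encodes Nav1.7 (-1.63, SE 0.37, adjusted p = 0.00106). Nrcam had 214 to 312 cpm in RBP4 TRAP and 99.1 to 126 in VGAT TRAP, and Fgf11 5.45 to 16.3 and 29.5 to 41.8. Scn7a and Scn9a were low, at most 6.02 and 5.23 cpm in these libraries.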

How the data were processed

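RNA was measured in 40 libraries, 5 pools of forebrains for each of 2 mouse lines and 4 fractions of each pool. Libraries were made with the SMARTer Ultra Low kit and read from one end. The authors aligned the reads with STAR 2.0.4b to the Ensembl top-level assembly, and counted uniquely aligned, unambiguous reads per gene with Subread featureCounts 1.4.5. The deposited values are these raw counts per gene and library, as the authors made them, with no normalization. Whether counting used strand is not given in the sources used here.

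Library sizes were the totals after 37 genes of the mitochondrial chromosome and 353 rRNA and tRNA genes were left out, and cpm and rpkm (per kb of exon) were computed from them. Libraries held 14259535 to 22037703 counts, and at these library sizes 1 count is worth 0.0455 to 0.112 cpm. A gene was tested where 3 or more libraries reached 0.5 cpm, by the quasi-likelihood test of edgeR 4.0.16 (R 4.3.3, glmQLFit and glmQLFTest, group as the only variable), on the 20 libraries of a line, or, between lines, on the 30 WCH, TRAP and ST libraries with the limit applied to TRAP and ST. The comparison of SNF between lines used all 40 libraries and, like TRAP less WCH, was added after the data had been seen. Adjusted p-values are Benjamini-Hochberg over all genes tested, with a threshold of 0.05, and the SE is the log2 fold change divided by the square root of F. The ratio of Scn1a to Scn2a was tested by exact 2-sided permutation (numpy 2.4.6). The fits were tested on simulated data. The alternatives were the likelihood ratio test, DESeq2 1.42.0, TMM factors, no genes left out, no limit on low counts, all 40 libraries, a replicate block, and leaving out each pool or the library RBP4 ST replicate 4.

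Within a line, samples with the same number came from the same pool, as the study's methods describe. Their deviations from the group means correlated at 0.217 on average in RBP4 and 0.257 in VGAT, against -0.054 and -0.063 for samples of different pools. Between lines the numbers pair no pools. The fits had group as the only variable and took the fractions of a pool as independent. The edgeR p-values between lines therefore do not measure the spread between pools alone. The same holds for ST less TRAP, for TRAP less WCH and for the comparisons within a line.

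The 7 members were all named in every comparison. From the pathway list, the 2 genes per direction with the smallest p in the comparison of the lines in TRAP or ST were named, and for each member the 2 genes of highest Pearson correlation of log2(cpm + 1). The members and lists were chosen with earlier results of these data known.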

Additional observations from a re-analysis of the deposited data

Results flagged for a closer look

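Among 56 groups of 5 libraries (7 members in 8 groups), 4 had a library far from the other 4 by Dixon's criterion, where chance gives about 1 in 20. The first RBP4 WCH library had 564 cpm of Scn2a, and the others 625 to 647. For Scn3a, the third VGAT library had 102 cpm in SNF and 42.5 in ST, where the others had 190 to 203 and 73.2 to 77.4. The fifth VGAT TRAP library had 1923 cpm of Scn2b, with 1062 to 1284 in the others.

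Scn4b differed between the lines by unequal amounts in the fractions. The log2 difference of RBP4 and VGAT in ST less that in TRAP was 1.75 (edgeR adjusted p = 0.00107), and that in TRAP less that in WCH was -2.26 (edgeR adjusted p = 3.14e-05). Leaving out each pool in turn gave 1.53 to 2.01 and -2.39 to -2.13. All 7 striatal, all 3 fast-spiking interneuron and all 5 GABAergic markers passed in the same directions as Scn4b in both of these contrasts. Their medians were 3.10, 2.39 and 4.14 for ST less TRAP, and -4.14, -3.18 and -4.57 for TRAP less WCH. Of the 4 projection neuron markers, 1 passed in the direction of Scn4b and 3 in the other, in both contrasts. The part of these cells in the values of Scn4b was not tested.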

How the results depend on the processing

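Of 93 log2 values for single genes, the likelihood ratio test kept the direction and the side of the threshold for 91, DESeq2 for 80, TMM for 81 and library sizes with no genes left out for 79, while no limit on low counts and a fit of all 40 libraries kept all 93. The replicate block kept 92 and changed no call, and turned only Scn3a in TRAP less WCH (-0.011). Between the lines this block joins unrelated pools, and is no check of those values. Scaling moved the median of all genes in SNF against WCH from -0.50 (RBP4) and -0.52 (VGAT) to -0.08 and -0.07 with DESeq2, -0.17 in both with TMM, and -0.73 and -0.80 with no genes left out. The cause of the changes that follow was not tested.

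Members called for TRAP against WCH in RBP4 numbered 6, and 3 with DESeq2 or 2 with TMM. Of 17043 genes, 5372 were lower there in the main test, 4159 with DESeq2 and 3815 with TMM. With no genes left out, SNF against WCH and ST over SNF in RBP4 had 3 calls each, where the main test had 5 each. Over all genes, 2286 of 17043 were higher in SNF than in WCH in the main test, and 1441 of 16855 with no genes left out. Lower in ST than in SNF were 931 and 317. Between the lines in ST, 1 member was called with the likelihood ratio test and none in the main test. Of 16898 genes, 19 were higher and 121 lower in RBP4 with the likelihood ratio test, and 10 and 45 in the main test. With the replicate numbers as a block, the ratio of Scn1a to Scn2a kept its differences of -1.27 in TRAP and -0.38 in ST. The adjusted p was 0.125 (exact sign-flip test, which reverses the signs of the 5 paired differences), since 5 pairs allow no p under 0.0625. As the numbers pair no pools between the lines, these pairs are arbitrary and cannot decide how far the ratio depends on the pools.

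Direction turned for uncalled values near 0. With no genes left out, Scn2b took 0.14 (ST against SNF, RBP4), 0.061 (TRAP against WCH, VGAT) and -0.011 (ST against TRAP, VGAT), and Scn4b 0.16 (ST against SNF, VGAT). With DESeq2 and TMM, Scn2b took 0.14 and 0.064 (ST against TRAP, RBP4) and 0.22 and 0.25 (TRAP against WCH, VGAT), Scn1a 0.0032 and 0.026 (TRAP against WCH, VGAT), and, between the lines in ST, Scn2a 0.095 and 0.062 and Scn8a 0.10 and 0.065. DESeq2 also gave 0.010 for Scn3a in ST and 0.021 for Scn2b in ST less TRAP, and TMM 0.035 for Scn3b in TRAP less WCH.

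Without 1 pool or without the library RBP4 ST replicate 4, members called ranged in RBP4 from 3 to 6 (SNF over WCH), 2 to 5 (ST over SNF) and 3 to 5 (ST over TRAP), from 0 to 1 between the lines in ST (1 without that library, none without any pool) and from 1 to 2 for ST less TRAP. Over all genes in RBP4, 1710 to 2429 were higher in SNF than in WCH when 1 pool was left out. With these or that library left out, 258 to 961 were lower in ST than in SNF, and 3661 to 5037 higher than in TRAP. These fits tested 16636 to 17008 genes. The ratio in ST ranged from -0.48 to -0.32. Values that crossed 0 were Scn2b in RBP4 (-0.16 to 0.012 for ST against SNF, -0.25 to 0.16 for ST against TRAP) and in VGAT (-0.14 to 0.11 for TRAP against WCH, -0.12 to 0.25 for ST against TRAP), and Scn4b in VGAT ST against SNF (-0.24 to 0.084). Between the lines these were, in WCH, Scn1a (-0.046 to 0.039) and Scn8a (-0.038 to 0.031), in TRAP, Scn3a (-0.030 to 0.29), Scn2b (-0.033 to 0.33) and Scn3b (-0.00010 to 0.10), and in ST, Scn2a (-0.20 to 0.15), Scn3a (-0.29 to 0.011), Scn8a (-0.24 to 0.12), Scn2b (-0.24 to 0.25) and Scn3b (-0.039 to 0.22). For ST less TRAP they were Scn1a (-0.17 to 0.33), Scn2b (-0.32 to 0.10) and Scn3b (-0.085 to 0.15), and for TRAP less WCH Scn3a (-0.19 to 0.16) and Scn3b (-0.11 to 0.0050).

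Each member had at least 243 counts in each library. The coefficient of variation within a group of 5 was highest for Scn2b in RBP4 WCH, at 52.4%.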
